A study of Mus musculus with 2 samples.

Results

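Dendritic cells (DCs) of the mouse lung were 58 of 15520 cells in droplet-based single-cell RNA-seq (scRNA-seq) of lungs reared in room air or hyperoxia, 16 of 3809 in room air and 42 of 11711 in hyperoxia. In this method each captured cell carries a barcode and each counted mRNA molecule a unique molecular identifier (UMI). Wild-type C57BL/6 mice, of the substrain C57BL/6J by the study's methods, were held at 21% O2 (room air) or 80% O2 (hyperoxia) from postnatal day 0 to day 14, and lungs of mice aged 2 weeks were digested with dispase, collagenase and DNase. The lungs of 8 mice were pooled into 1 library for each group, so neither group has a replicate, no test between groups was possible, and no p-value is given. All intervals below are 95% intervals that cover counting error only, and differences between mice, between digestions and between cells of a library stand outside them.

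The DCs were chosen by measured UMIs, so that the genes used in the choice are not findings. Barcodes needed 500 or more genes and no more than 20% mitochondrial UMIs, and such a barcode was taken as a DC when it held at least 10 UMIs of H2-Ab1, a chain of MHC class II, and at least 2 UMIs summed over Flt3, Xcr1, Clec9a, Cd209a and Ccr7. It also had to hold fewer than 6 UMIs of C1qa, C1qb and C1qc, fewer than 4 of the macrophage genes Plet1, Atp6v0d2, Marco and Ear2, and none of the B cell genes Cd79a and Ms4a1, the T cell genes Cd3e, Cd3d and Cd3g, the endothelial gene Cdh5 or the epithelial gene Epcam. Of the steps that exclude other cells, the B cell step removed the most barcodes, after which 20 of 145 barcodes were left in the room air library and 61 of 211 in the hyperoxia library. Just inside the limit on the 5 markers, 1 DC of room air and 2 DCs of hyperoxia held 2 marker UMIs, and just outside it 0 and 2 barcodes held 1. Just inside the limit on H2-Ab1, 1 and 5 DCs held 10 to 19 UMIs, and just outside it 3 and 5 barcodes held 5 to 9.

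DCs take up antigen in tissues, carry it to lymph nodes and present it to T cells on MHC class I and class II. In the lung, conventional DCs of type 1 (cDC1) bear XCR1 and CLEC9A, depend on the transcription factors IRF8 and BATF3 and specialise in showing engulfed antigen to CD8 T cells, while type 2 (cDC2) bear SIRPA and lectins such as CD209A and mainly present to CD4 T cells. Either type can mature, and then it raises CCR7, the receptor that guides it to the lymph node, together with a shared set of genes such as Fscn1, Ccl22 and Il12b.

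Both libraries were deeper in DCs than elsewhere. DCs had 2556 to 30388 UMIs with a median of 20025 in room air and 2063 to 23102 with a median of 13290 in hyperoxia, against medians of 8299 and 8009 over all kept barcodes. The room air DCs gave 309451 UMIs in all and the hyperoxia DCs 556317. After each cell was thinned to 3000 UMIs, DCs of both libraries held close numbers of genes, with a median of 1232 in the 15 room air DCs deep enough and 1254.5 in the 40 hyperoxia DCs. The libraries shared 17 barcode sequences, of which 1 belonged to a DC of 1 library, and no shared barcode was a DC in both. A search for doublets scored each cell by the share of simulated pairs among its nearest neighbours. It marked 0 of 16 and 1 of 42 DCs, at score limits of 0.933 and 0.6 that followed each library's expected rate. The median score was 0.483 and 0.367 in DCs against 0.2 and 0.167 in other cells, so the DCs are not shown to be free of doublets. DC libraries held cells of both sexes, with Xist UMIs in 5 of 16 and 12 of 42 DCs and UMIs of Y-linked genes in 10 and 22.

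Genes of several other cell types were low in the DCs against other kept barcodes. Monocyte genes and genes of T, natural killer (NK) and innate lymphoid cells were less so. Levels are given as CPM, the UMIs of a gene for every 1000000 UMIs of all genes, summed over the DCs of a library. The 6 mast cell and basophil genes were at 0 in both libraries, which allows a level of up to 9.69 CPM for a gene in room air and 5.39 CPM in hyperoxia, and the 5 B cell genes that the choice had not used summed to 9.69 and 16.2 CPM against 4058 and 4164 CPM in B cells of the same libraries. Of 11 macrophage genes, Mertk, Folr2 and Trem2 were at 0 in both libraries and the sum was 239 and 250 CPM. The 12 genes of T, NK and innate lymphoid cells summed to 132 and 264 CPM, against 299 and 305 CPM in all other kept barcodes. The 15 monocyte genes summed to 1606 CPM in room air DCs and 2738 CPM in hyperoxia DCs, against 5744 and 5605 CPM in all other kept barcodes, with single DCs up to 3643 and 21106 CPM. Between libraries 4 of the 5 monocyte genes with a mean of at least 50 CPM had a log2 ratio above 0, with a median of 0.56, and their part in the differences below was not tested. Epithelial genes summed to 420 CPM in room air DCs and 708 CPM in hyperoxia DCs, and in B cells, which should lack them, to 1017 and 3523 CPM. Sftpc, a surfactant gene of alveolar type 2 cells, was 142 CPM in room air DCs and 390 CPM in hyperoxia DCs and was present in 84.2% and 92.0% of B cells, whose median depth was 4736 and 3004 UMIs. The part of free RNA in any difference below was not tested.

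The 5 marker genes of the choice lie on 5 chromosomes of the build GRCm38 in GENCODE release 21: Flt3 at chr5:147330741-147400489, Xcr1 at chr9:123852315-123862029, Clec9a at chr6:129408862-129424763, Cd209a at chr8:3743397-3748984 and Ccr7 at chr11:99144196-99155077. Each is a protein-coding gene, and all but Clec9a lie on the minus strand. RefSeq promoters (build GRCm38.p6, 250 bases before to 50 after the start) matched 4 of the 5, Ccr7 not among them. They were searched on both strands for GGAANNGAAA, the composite element bound by PU.1 with IRF8 or IRF4, and for GGGNNTTTCC, an NF-kappa-B element, letters that do not overlap. The promoters of the genes that tell the groups of DCs apart are shown, 5′ to 3′ on the gene's strand, with a match in capitals.
Cd209a, chr8:3748935-3749234, minus strand: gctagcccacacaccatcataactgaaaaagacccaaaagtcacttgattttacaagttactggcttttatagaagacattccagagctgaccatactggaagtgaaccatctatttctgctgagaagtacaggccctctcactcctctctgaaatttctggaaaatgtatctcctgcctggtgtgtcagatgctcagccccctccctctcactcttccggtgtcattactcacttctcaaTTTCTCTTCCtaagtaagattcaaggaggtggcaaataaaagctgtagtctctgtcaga
Xcr1, chr9:123861980-123862279, minus strand: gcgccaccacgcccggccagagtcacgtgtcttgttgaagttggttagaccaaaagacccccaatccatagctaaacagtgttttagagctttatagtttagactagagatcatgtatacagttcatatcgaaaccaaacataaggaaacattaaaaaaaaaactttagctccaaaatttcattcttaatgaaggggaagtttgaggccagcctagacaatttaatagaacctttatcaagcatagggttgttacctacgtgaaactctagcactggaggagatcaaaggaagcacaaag
Clec9a, chr6:129408612-129408911, plus strand: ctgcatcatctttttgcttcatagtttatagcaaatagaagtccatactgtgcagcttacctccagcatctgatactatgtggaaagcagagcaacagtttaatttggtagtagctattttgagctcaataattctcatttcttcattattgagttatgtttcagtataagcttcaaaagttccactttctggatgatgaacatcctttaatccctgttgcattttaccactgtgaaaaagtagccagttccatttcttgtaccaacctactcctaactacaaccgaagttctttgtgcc
The Cd209a promoter held GGAANNGAAA on the opposite strand, ending at the annotated start, and Flt3, Xcr1 and Clec9a held neither element. In all, 3.16% of 27025 genes with a promoter held GGAANNGAAA and 1.89% held GGGNNTTTCC. Of the 10 genes that led each group of DCs below, 6 matched a promoter in the Xcr1/Clec9a group, 8 in the Cd209a group and 6 in the Ccr7 group. GGGNNTTTCC was in Tlr3 of the first and in Ccl9 and Fcgr3 of the second, GGAANNGAAA was in Cd209a alone, and neither was in the 6 of the third. These matches describe letters in a window and not sites in use.

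Each DC was placed in the group whose marker sum was strictly the largest: Xcr1 with Clec9a, Cd209a, or Ccr7. The Xcr1/Clec9a group held 9 DCs of room air and 23 of hyperoxia, the Cd209a group 5 and 8, and the Ccr7 group 2 and 9, with 2 hyperoxia DCs undecided. In room air, Xcr1/Clec9a DCs held 9 to 31 UMIs of their markers and 0 of Cd209a, Cd209a DCs held 1 to 51 UMIs of Cd209a and 0 of Xcr1 and Clec9a, and the Ccr7 DCs held 8 and 20 UMIs of Ccr7. In hyperoxia the ranges were 1 to 15, 2 to 16 and 1 to 52. Both undecided DCs held only Flt3 among the 5 markers. Among B cells, Xcr1 UMIs were in 0 of 374 and 3 of 1218 cells, and Cd209a UMIs in 1 and 0, where a count of 0 allows a share of up to 0.802% of the room air B cells and 0.246% of the hyperoxia B cells. Ccr7 is not a gene of DCs alone, and it was 412 and 391 CPM in B cells and 160 and 170 CPM in T cells.

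Gene lists that left out the genes of the choice described these groups. Groups were read within each library, and a gene counted for a group only when it was at least 2-fold higher than in the other groups in both libraries. These counts describe the groups and are not a test, since the lists hold known relatives of the markers. The limit of a mean of 50 CPM over all DCs also favours genes that are high in a group, above all a large group. Some genes pass it only through the group where they are high. It kept 14 of 16 cDC1 genes, 5 of 16 cDC2 genes and 16 of 24 mature DC genes. In the Xcr1/Clec9a group 11 of the 14 cDC1 genes past the limit were higher, against 5.04% of all 2659 genes. These were the transcription factor Irf8, the adhesion genes Cadm1 and Itgae, Wdfy4, which is needed for cross-presentation, the double-stranded RNA sensor Tlr3, and Naaa, Ifi205, Ppt1, Rab7b, Cxx1a and Sept3. Batf3, Fgd2 and Id2 were not. The list summed to 6928 and 6396 CPM in the group and to 1155 and 1184 CPM in the other groups. None of the 5 cDC2 genes or 16 mature DC genes were higher there.

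In the Cd209a group 4 of the 5 cDC2 genes past the limit were higher, against 3.12% of all genes. These were Sirpa, the inhibitory receptor that marks cDC2, the lectin Mgl2, Tnip3, a regulator of NF-kappa-B, and the transcription factor Zeb2. Klf4 was not. The list summed to 3388 and 2872 CPM, against 221 and 510 CPM in the other groups. The 10 genes that led the group over the other groups also held Clec10a, Ms4a4c, Ms4a6d, Ms4a6b, Clec4a2, Plaur, the chemokine Ccl9 and the antibody receptor Fcgr3, genes that monocyte-derived cells also express. Monocyte genes summed to 2165 and 4249 CPM in this group against 1429 and 1874 CPM in the others, and 2 of its hyperoxia DCs held 49 and 42 UMIs of Lyz2, a gene of monocytes and macrophages, against 0 to 2 in its other 6.

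In the Ccr7 group 14 of the 16 mature DC genes past the limit were higher, against 4.51% of all genes. Some, such as Fscn1 and Il4i1, passed the limit only through this group, so the count was partly fixed in advance. Fscn1, which bundles actin in mature DCs, was 2128 CPM in the 2 room air DCs and 2070 CPM in the 9 hyperoxia DCs, and it was 0 and 14.3 CPM in the other groups. Il4i1, an enzyme that uses up amino acids, was 1500 and 1044 CPM, and Fabp5, a lipid carrier, 3315 and 2973 CPM. Birc3 and Nfkb1 were not higher. The mature DC list summed to 21250 and 18995 CPM in the group and to 944 and 983 CPM in the others. The room air values rest largely on 1 cell, which held 60 of the 61 Fscn1 UMIs, while the other room air Ccr7 DC held 1 of Fscn1 and 0 of Ccl22, Ccl17, Ccl5 and Il12b.

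**Figure D1:**
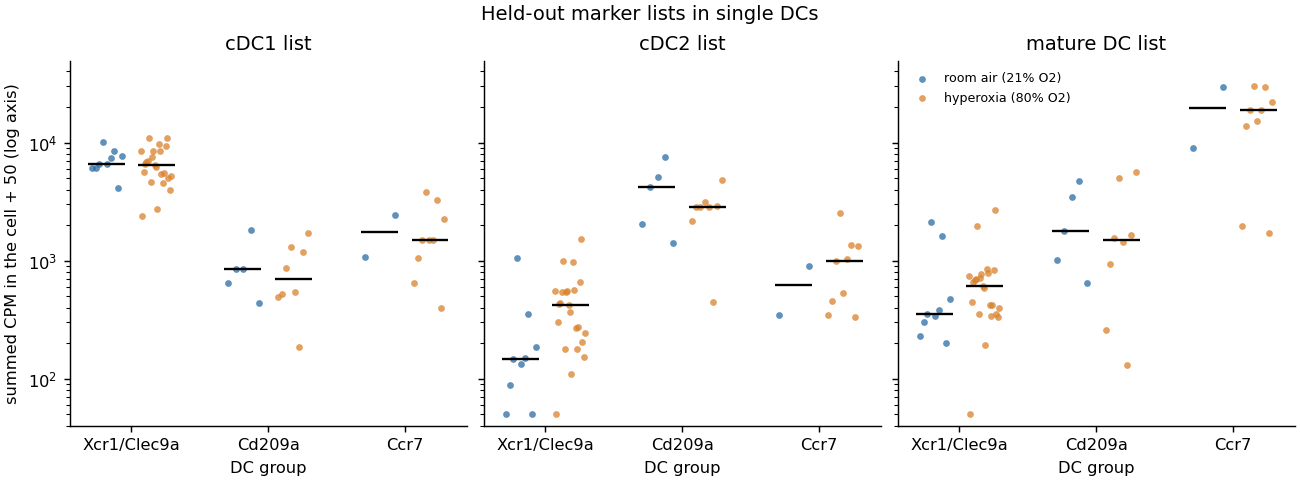
Summed CPM of 3 held-out gene lists in each single DC, plus 50, on a log axis, by DC group, with 1 point per cell (blue, room air; orange, hyperoxia) and a bar at the median; the 2 undecided DCs are not drawn. The cDC1 list is highest in the Xcr1/Clec9a group, the cDC2 list in the Cd209a group and the mature DC list in the Ccr7 group, in which 2 hyperoxia cells fall low at 1910 and 1650 CPM.

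Cells within a group were not alike. Over single cells, the cDC1 list ran from 4035 to 10022 CPM in the 9 room air Xcr1/Clec9a DCs and from 2354 to 10919 CPM in the 23 hyperoxia DCs, and it stayed at or below 2366 CPM in the room air DCs of the other groups. In hyperoxia the groups overlapped, since it reached 3795 CPM in a Ccr7 DC and 3817 CPM in an undecided DC. The mature DC list ran from 1650 to 30337 CPM in the 9 hyperoxia Ccr7 DCs. The 2 lowest of them, at 1910 and 1650 CPM, held 1 UMI of Ccr7 each, and the lowest held 21 UMIs of Siglech, a plasmacytoid DC gene, with a plasmacytoid list at 12046 CPM against a median of 291 CPM over hyperoxia DCs. By these values that cell went against its group. One undecided hyperoxia DC had the highest monocyte list of its library, at 21106 CPM. An unsupervised clustering of the 58 DCs without the genes of the choice gave 5 clusters. The cluster high in the cDC2 list held 12 of 13 Cd209a DCs, the cluster high in the mature DC list held 9 of 11 Ccr7 DCs, and the cluster high in the cDC1 list held 14 of 32 Xcr1/Clec9a DCs. Another 17 Xcr1/Clec9a DCs lay in 2 clusters with no list at 1.5 times its mean over all DCs. The one that held 9 of them had 1 room air and 11 hyperoxia cells in all, with 2 Ccr7 DCs and 1 undecided DC among them. The other had 3 room air and 6 hyperoxia cells, and the cluster high in the cDC1 list 5 and 9. Each of these clusters held cells of both libraries. The part of an uneven spread over clusters in the ratios given within the Xcr1/Clec9a group was not tested.

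Most cells with UMIs of a dividing cell were in the Xcr1/Clec9a group. With at least 5 UMIs of Mki67, a protein of dividing nuclei, were 3 of 9 room air and 5 of 23 hyperoxia DCs of that group, 0 of 5 and 1 of 8 of the Cd209a group and 0 of 2 and 0 of 9 of the Ccr7 group, a threshold chosen after the values were seen. The highest count in room air was 26 UMIs, in an Xcr1/Clec9a DC, and in hyperoxia 14, in the Cd209a DC, whose cell cycle list was 8873 CPM. One of the 3 room air cells held 9 UMIs of Mki67 but 0 of Top2a and had a list of 1469 CPM, below the 6322 CPM of a cell that was not counted. The cell cycle list reached 12715 CPM in a room air cell and 12584 CPM in a hyperoxia cell of the Xcr1/Clec9a group, whose medians were 1068 and 1586 CPM. In the Ccr7 group it stayed at or below 2978 CPM. Top2a, which untangles DNA in division, and Ube2c, a mitotic ubiquitin enzyme, were among the 10 leading genes of the Xcr1/Clec9a group, and Top2a was 184 and 208 CPM there with 0 UMIs in the other groups.

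Against all other kept barcodes, the genes with the largest excess in DCs, given as a description, included 4 of the 5 markers of the choice. Xcr1 was 310 CPM in room air DCs and 128 CPM in hyperoxia DCs, against 2.55 and 2.24 CPM elsewhere. Ccl22, a chemokine that draws T cells, was 165 and 780 CPM against 9.95 and 3.22 CPM. Genes outside the choice on this list of 15 were A530099J19Rik, Ccl22, Il4i1, Sept3, Ifi205, Hepacam2, Il12b, Itgae, Tspan33, Tnni2 and H2-Eb1. Tnni2, a troponin gene of fast muscle, was 178 and 113 CPM in DCs against 6.42 and 4.04 CPM elsewhere.

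The share of DCs was close in both libraries. DCs were 0.420% of kept barcodes in room air (0.240 to 0.681%, exact) and 0.359% in hyperoxia (0.259 to 0.484%), a difference of -0.0614 percentage points with an interval from -0.341 to 0.158. Alveolar macrophages, taken by 4 or more UMIs of Plet1, Atp6v0d2, Marco and Ear2, were 5.28% and 2.59%, and monocytes 5.07% and 2.16%, so that DCs were 3.52% of all DCs, macrophages and monocytes in room air (2.03 to 5.66%) and 5.88% in hyperoxia (4.27 to 7.87%). These are shares of sequenced cells after digestion, and a change in 1 cell type moves the share of all others.

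Among DCs, Xcr1/Clec9a DCs were 56.2% in room air (29.9 to 80.2%) and 54.8% in hyperoxia (38.7 to 70.2%). Cd209a DCs were 31.2% (11.02 to 58.7%) and 19.05% (8.60 to 34.1%), and Ccr7 DCs 12.5% (1.55 to 38.3%) and 21.4% (10.3 to 36.8%). The difference was -12.2 points for the Cd209a group (-41.5 to 13.03) and 8.93 points for the Ccr7 group (-19.2 to 27.8), so that neither was detectable with 16 and 42 cells. With at least 20 UMIs of H2-Ab1 in place of 10, the Ccr7 difference was -2.52 points.

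**Figure D2:**
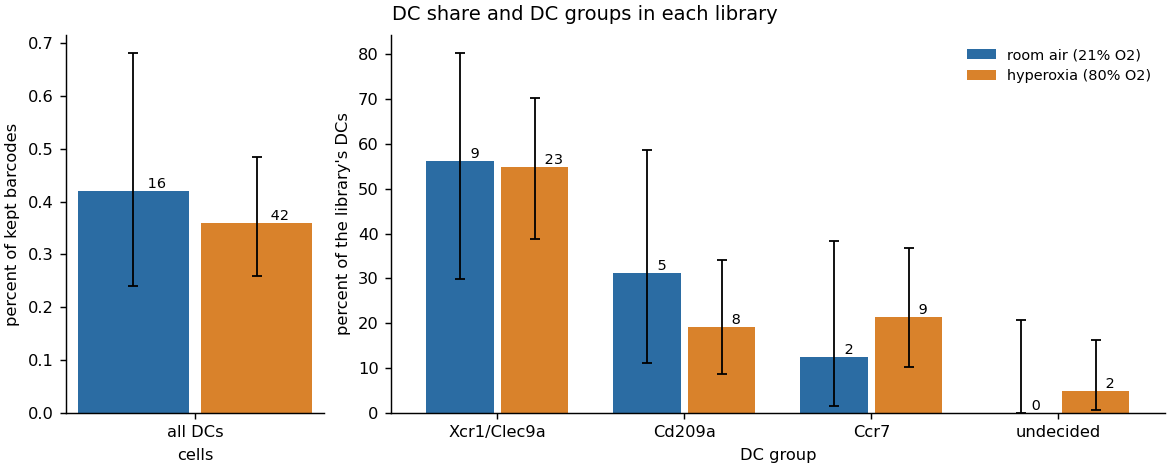
Left, DCs as a percent of kept barcodes in each library; right, the DC groups as a percent of the DCs of each library. Bars are shares, lines exact 95% intervals, and the figures beside the bars count cells; the intervals of the libraries overlap for every group.

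Between libraries, UMIs of each gene were summed over all DCs of a library and scaled to CPM. Of 2659 genes with a mean of at least 50 CPM, 97 (3.65%) were at least 2-fold higher in hyperoxia DCs and 66 (2.48%) at least 2-fold lower, and the log2 ratio, hyperoxia over room air, had a median of 0.04 with quartiles of -0.26 and 0.34. Without replicates these are counts by size and not calls of a test. With 16 cells in room air, 1 cell can set a sum, so the share of a gene's UMIs that came from its top cell is given for several genes where it was large. Lists are described by their counts and medians beside these values. When cells were thinned to 3000 UMIs before the choice, which replaced many of the cells, 19 of the 51 genes named below as past 2-fold that still had a value were past it in the same direction, 26 kept the direction below 2-fold and 6 turned. Thinning served the choice alone, and these ratios use the full counts of the cells it took.

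MHC class II genes were lower in hyperoxia DCs as a list, by less than 2-fold. Of 13 genes past the limit 12 had a log2 ratio below 0, with a median of -0.40. H2-DMb2 alone was at least 2-fold lower, against 2.48% of all genes. The 12 include H2-Ab1, a gene of the choice, and the median is its own ratio, so neither is free of the choice. Cd74, the invariant chain that escorts class II through the cell, was 21270 and 16897 CPM (log2 ratio -0.33, -0.38 to -0.29). H2-Ab1, which the choice used, was 8564 and 6477 CPM (-0.40, -0.48 to -0.33), H2-Aa 9371 and 7039 CPM (-0.41, -0.48 to -0.34), and H2-Eb1 7190 and 5380 CPM (-0.42, -0.50 to -0.34). H2-DMb2, part of the exchanger that loads peptide, was 132 and 64.7 CPM (-1.03, -1.72 to -0.35). Ciita, the master activator of class II genes, was 103 and 61.1 CPM (-0.76, -1.50 to -0.02), and H2-Ob alone lay above 0, at 51.7 and 59.3 CPM (0.20, -0.70 to 1.16).

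Single cells, read on the list without H2-Ab1, overlapped between libraries. In the Cd209a group the class II list ran from 20344 to 61295 CPM with a median of 53210 CPM in 5 room air DCs and from 26347 to 48291 CPM with a median of 35031 CPM in 8 hyperoxia DCs, and 3 room air cells lay above every hyperoxia cell. In the Xcr1/Clec9a group it ran from 29880 to 51734 CPM (median 37776) in room air DCs and from 16958 to 46359 CPM (median 33273) in hyperoxia DCs. Over genes, the median log2 ratio was -0.60 in the Cd209a group and -0.23 in the Xcr1/Clec9a group, whose difference was not tested. In the Ccr7 group the list, here with H2-Ab1, summed to 33776 and 34140 CPM, and H2-Ab1 was 3559 and 3692 CPM (0.05, -0.26 to 0.38). In macrophages with C1q UMIs, in monocytes and in B cells the list's median was -0.13, -0.15 and -0.10. H2-Ab1 had a ratio of -0.41 in all other kept barcodes pooled, at 364 and 273 CPM. By cell type it was 819 and 338 CPM in alveolar macrophages, 1941 and 1720 CPM in C1q macrophages and 1376 and 1266 CPM in B cells. In monocytes it was 21.2 and 42.1 CPM, so size and direction differed between cell types. Alveolar macrophages were taken without a limit on H2-Ab1 or on the 5 markers. They held Cd209a at 41.9 and 13.5 CPM and Xcr1 at 13.7 and 4.56 CPM, both of which were 0 in C1q macrophages. The part of cells with DC markers in the H2-Ab1 levels of alveolar macrophages was not tested. A lower level of class II genes in hyperoxia was not seen in DCs alone. The room air DCs were deeper, and the part of depth in the class II difference of DCs was not tested.

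**Figure D3:**
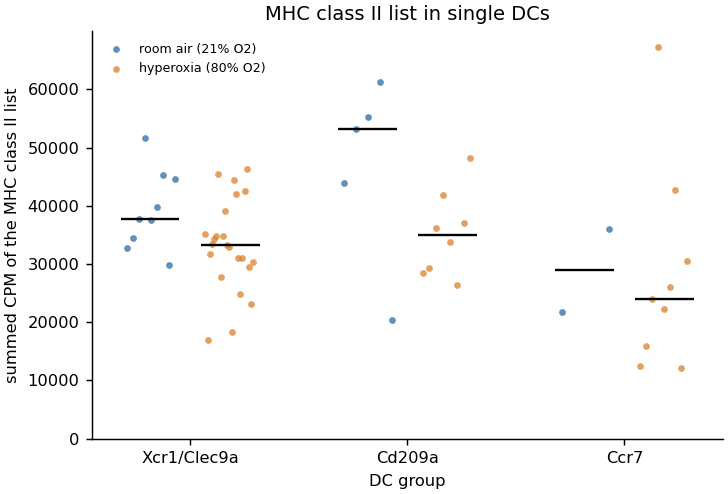
Summed CPM of the MHC class II list in each single DC, by DC group, with 1 point per cell (blue, room air; orange, hyperoxia) and a bar at the median; the 2 undecided DCs are not drawn. The list is drawn without H2-Ab1, a gene of the choice. Medians in the Cd209a group are 53210 and 35031 CPM, and cells of both libraries overlap in every group.

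MHC class I and cross-presentation genes had a median of -0.20 over 18 genes, 5 of them above 0, and the list's median was -0.44 in C1q macrophages, -0.70 in monocytes and -0.30 in B cells. The classical class I genes H2-K1, at 1144 and 795 CPM (-0.53, -0.73 to -0.32), and H2-D1, at 1680 and 1228 CPM (-0.45, -0.62 to -0.29), were lower in hyperoxia DCs, with ratios of -0.77 and -0.57 in all other kept barcodes. H2-Q6 (113 and 43.1 CPM) and H2-Q7 (184 and 80.9 CPM), nonclassical class I genes, were at least 2-fold lower, against 2.48% of all genes. Their log2 ratios were -1.39 and -1.19, and they are near-identical copies between which reads can be split. In all other kept barcodes their ratios were -1.32 and -1.21. Subunits of the immunoproteasome, which cuts peptides for class I, lay near 0, with Psmb8 at 737 and 800 CPM (0.12, -0.11 to 0.36).

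Genes of mature DCs were higher in the pooled DCs of hyperoxia. Of 16 genes past the limit 13 had a ratio above 0, the median log2 ratio was 0.59, and 6 were at least 2-fold higher, against 3.65% of all genes: Fscn1, Ccl22, Il12b, Cd63, Samsn1 and Serpinb6b. Ccl22 was 165 and 780 CPM (2.24, 1.82 to 2.69), Il12b, a subunit of IL-12, 61.4 and 286 CPM (2.22, 1.53 to 2.99), and Fscn1 197 and 435 CPM (1.14, 0.73 to 1.57). Single cells carried these sums, since 1 room air cell gave 92.2% of the Ccl22 UMIs of its library, all of the Il12b UMIs and 98.4% of the Fscn1 UMIs, and the top hyperoxia cell gave 33.9%, 55.3% and 45.5%. Ccl5, a chemokine of the same list, went the other way at 533 and 401 CPM (-0.41, -0.71 to -0.11), and all its room air UMIs came from 1 cell.

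The Ccr7 group was 2 of 16 DCs in room air and 9 of 42 in hyperoxia, of which 2 held 1 Ccr7 UMI and little of the mature list, and the part of this share in the mature genes was not tested. With the 3 groups given the same weights in both libraries, the list's median was -0.06, and within the Xcr1/Clec9a group it was -0.54 over the 3 genes past the limit. Within the Ccr7 group the list sum was 21250 and 18995 CPM. Among B cells, which should lack them, Ccl22 UMIs were in 0 of 374 and 1 of 1218 cells and Il12b UMIs in none. Fscn1 UMIs were in 12 and 24 of these B cells.

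Chemokine genes had the highest median of the lists with more than 5 genes past the limit, 0.86 over 8 genes. Of these, Ccl22, Ccl4 and Cxcl2 were at least 2-fold higher in hyperoxia DCs, against 3.65% of all genes. Ccl4, which draws T cells and monocytes, was 64.6 and 226 CPM (1.81, 1.12 to 2.57). Cxcl2, which draws neutrophils, had 1 UMI in room air and 102 in hyperoxia (log2 ratio 5.83, 3.32 to 11.14), of which 87.3% came from 1 cell. Ccl6 was 100 and 187 CPM (0.90, 0.31 to 1.53). Within the Xcr1/Clec9a group the list's median was -0.04, and it was 0.92 in C1q macrophages and 0.49 in monocytes.

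Of 6 chemokine receptors past the limit, Ccr7 and Gpr183 were at least 2-fold higher and Xcr1 at least 2-fold lower, against 3.65% and 2.48% of all genes. Xcr1 and Ccr7 were used in the choice, and their ratios of -1.28 and 2.06 are given as a description. For Ccr7, 66.7% of the room air UMIs came from 1 cell. All 9 room air Xcr1/Clec9a DCs held 3 to 24 UMIs of Xcr1, while 17 of 23 hyperoxia DCs of the group held 1 to 10. Within the group Xcr1 was 465 and 224 CPM, and Clec9a 218 and 271 CPM. Gpr183, an oxysterol receptor that positions DCs in lymphoid tissue, was 42.0 and 102 CPM (1.29, 0.40 to 2.28).

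Of the core identity genes, the cDC1 list had a median of -0.26 with 3 of 14 genes above 0 and no gene past 2-fold, and its median within the Xcr1/Clec9a group was -0.0035. Irf8 was 892 and 726 CPM (-0.30, -0.52 to -0.07), Batf3 139 and 149 CPM (0.10, -0.45 to 0.67), and Zbtb46, a transcription factor of conventional DCs, 71.1 and 66.5 CPM (-0.10, -0.90 to 0.74). The cDC2 list had a median of 0.02 over 5 genes, and within the Cd209a group -0.86 with 2 of 5 above 0. Cd209a itself, part of the choice, was 288 and 115 CPM (-1.32, -1.81 to -0.84), and 1197 and 621 CPM within its group (-0.95, -1.43 to -0.47). In room air 1 cell gave 57.3% of the Cd209a UMIs, so that both ratios rest largely on that cell. Mgl2 was lower at 317 and 146 CPM (-1.12, -1.56 to -0.68), and 71.6% of its hyperoxia UMIs came from 1 cell. Flt3, the receptor that sustains DCs and part of the choice, was 74.3 and 128 CPM (0.78, 0.08 to 1.53).

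Of 25 transcription factors past the limit, 17 had a ratio above 0, the median was 0.27, 3 were at least 2-fold higher and 1 at least 2-fold lower. Over all 2659 genes, 3.65% were higher and 2.48% lower. Nr4a3, an orphan receptor linked to DC migration, was 136 and 485 CPM (1.84, 1.37 to 2.34), and Nr4a2 142 and 349 CPM (1.29, 0.82 to 1.80). Within the Xcr1/Clec9a group the Nr4a3 ratio was -0.15, and in the Cd209a group 2.21. Cebpb, a factor of monocytes and macrophages, was 48.5 and 182 CPM (1.91, 1.12 to 2.79), with 45.5% of the hyperoxia UMIs in 1 cell. Its ratio was 0.06 with the choice made on thinned cells. Notch2, a receptor on which a part of cDC2 depends, was 174 and 77.3 CPM (-1.17, -1.79 to -0.57) and was lower in each of the 3 groups, with ratios of -1.14, -1.28 and -1.18. Its ratio in all other kept barcodes was -0.94.

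Of the 3 p53 target genes past the limit, Cdkn1a, which stops the cell cycle, was at least 2-fold higher, against 3.65% of all genes. Its levels were 149 and 611 CPM (log2 ratio 2.04, 1.59 to 2.52), and 2.13 in the Xcr1/Clec9a group, 1.42 in the Cd209a group and 1.85 in the Ccr7 group. UMIs were in 9 of 16 room air DCs, up to 11 in a cell, and in 29 of 42 hyperoxia DCs, up to 45, while B cells held them in 8.56% and 19.5% of cells. Its ratio was 2.23 in all other kept barcodes, and the difference between DCs and other cells was not tested. The DC ratio was 0.80 with the choice made on thinned cells. Bax was 129 and 183 CPM (0.50, -0.04 to 1.07) and Btg2 969 and 1102 CPM (0.18, -0.02 to 0.39), and the other 13 of 16 genes on the list did not pass the limit.

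Among the other lists, oxidative phosphorylation genes had a median of -0.36, with 3 of 19 genes above 0 and none past 2-fold. The median was -0.10 in the Xcr1/Clec9a group, and in C1q macrophages, monocytes and B cells it was -0.18, -0.28 and -0.10. The 15 antioxidant genes past the limit, targets of NRF2 among them, had a median of 0.17 with none past 2-fold, for example Txnrd1 at 54.9 and 91.7 CPM, Prdx1 at 278 and 338 CPM and Sod2 at 80.8 and 70.1 CPM. Hypoxia and glycolysis genes had a median of 0.15 over 9 genes, interferon-stimulated genes -0.15 over 11, with Phf11b at least 2-fold lower, and costimulation and checkpoint genes 0.08 over 7. Cd83, a maturation marker, was 533 and 807 CPM (0.60, 0.34 to 0.86) and Cd86 181 and 124 CPM (-0.55, -1.07 to -0.01). Of 13 cell cycle genes past the limit, 3 lay above 0, and Cenpf (123 and 48.5 CPM) and Ube2c (281 and 120 CPM) were at least 2-fold lower, with 81.6% and 69.0% of their room air UMIs in 1 cell. Over all genes 2.48% were at least 2-fold lower.

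Smaller lists added single genes past 2-fold, where 3.65% of all genes were higher and 2.48% lower. Of 5 cytokine genes, Il12b was higher, as above, and Ebi3, a subunit shared by IL-27 and IL-35, was lower at 84.0 and 35.9 CPM (-1.22, -2.14 to -0.33). Il1b was 566 and 349 CPM (log2 ratio -0.70). Of 11 cytokine receptors, Tnfrsf1a, a receptor of TNF, was higher at 38.8 and 88.1 CPM (1.18, 0.25 to 2.23). Of 5 pattern receptors, Clec12a, an inhibitory lectin, was lower at 149 and 73.7 CPM (-1.01, -1.66 to -0.37), with a ratio of -0.90 in all other kept barcodes. Among 28 adhesion and migration genes, Fscn1 and Adam8, a membrane protease, were past 2-fold, Adam8 at 71.1 and 167 CPM (1.23, 0.55 to 1.98), and among 26 immediate early and heat shock genes, which also respond to tissue digestion, Dusp2 alone passed 2-fold, with a list median of 0.13. That list's median was 0.35 in the Xcr1/Clec9a group, with 21 of 26 genes above 0, and -0.24 in the Cd209a group, with 7 above 0, while its sum in the Ccr7 group was 5618 and 15934 CPM, and its part in the group differences was not tested. Plac8, which the monocyte list holds and B cells express at a higher level, was 252 and 868 CPM (1.78, 1.44 to 2.15), and Apoe was 25.9 and 95.3 CPM (1.88, 0.80 to 3.17) with 50.9% of the hyperoxia UMIs in 1 cell.

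**Figure D4:**
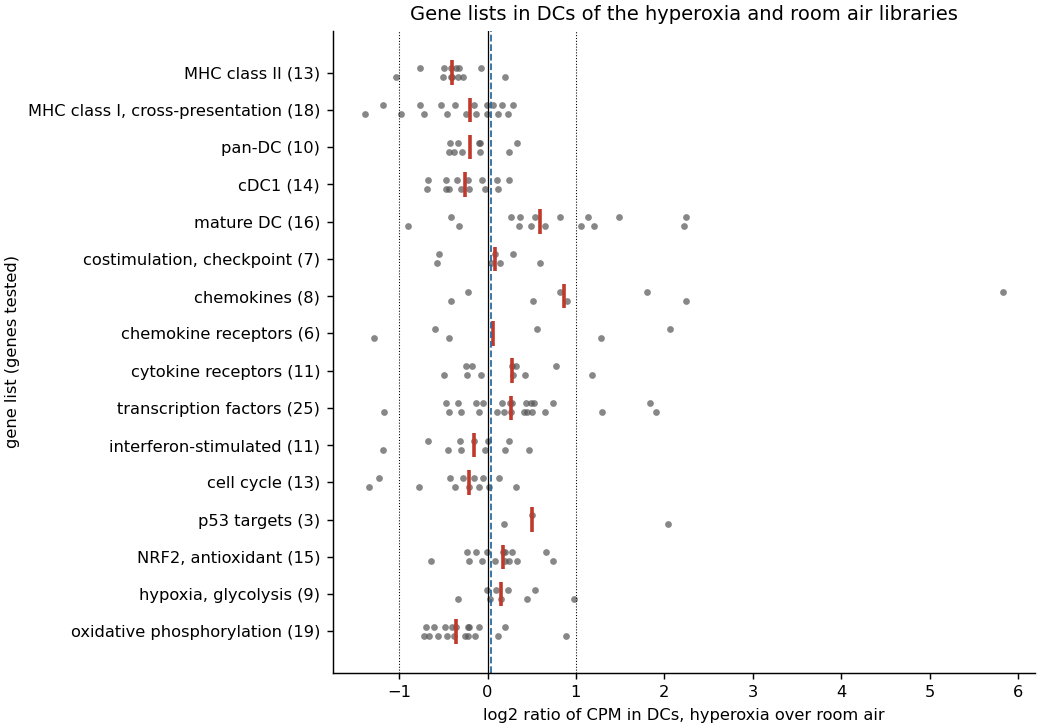
Each grey point is a gene of a list, placed by its log2 ratio of CPM in DCs, hyperoxia over room air; red marks are list medians, the dashed line is the median of all 2659 genes, and dotted lines mark 2-fold. The MHC class II and oxidative phosphorylation lists lie mostly left of 0, with medians of -0.40 and -0.36. The class II points and median include H2-Ab1, a gene of the choice. The mature DC and chemokine lists lie mostly right, with medians of 0.59 and 0.86.

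By size alone, the 12 largest and 12 smallest ratios were taken among 1793 genes that were at least as high in DCs as in the other kept barcodes. Rgs1, which dampens chemokine receptor signals, had the largest, which was 0.49 with the choice made on thinned cells, with 5 UMIs in room air DCs and 210 in hyperoxia DCs, or 16.2 and 377 CPM (log2 ratio 4.55, 3.30 to 6.18). In room air it was in 2 DCs, with 4 and 1 UMIs, and in hyperoxia in 16 of 42 DCs, up to 51 UMIs, where the top cell gave 24.3% of the UMIs. By group it was 0 and 29 UMIs in Xcr1/Clec9a DCs, 1 and 21 in Cd209a DCs and 4 and 160 in Ccr7 DCs, so that it was higher in each. It was 476 and 641 CPM in C1q macrophages, and B cells held it in 2.94% and 3.37% of cells.

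The other genes on the higher side were Erdr1, Tspan3, Tbc1d8, Ccl22, Il12b, Zc3h12c, Psip1, Ccr7, AA467197, P2ry10 and Sbds, with log2 ratios from 1.90 to 3.50. Erdr1, annotated on the Y chromosome, was 9.69 and 110 CPM and had a ratio of 2.77 in all other kept barcodes. Tbc1d8, of a family that switches Rab GTPases off, was spread over cells, with UMIs in 28 of 42 hyperoxia DCs and the top cell giving 10.6%. Its levels were 22.6 and 119 CPM (2.39, 1.27 to 3.76), with a ratio of -0.20 elsewhere. Psip1, a chromatin reader, was 22.6 and 101 CPM (2.15, 1.02 to 3.53) with UMIs in 30 hyperoxia DCs and a ratio of 0.03 elsewhere, and P2ry10, an X-linked lysophospholipid receptor, 38.8 and 153 CPM (1.98, 1.10 to 2.99). Tspan3 held 37.3% of its hyperoxia UMIs in 1 cell.

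The genes on the lower side were Gm12840, Hist1h2ae, Mcemp1, Xlr, March2, Pyhin1, Rrad, Sult1a1, Cldn1, Gpr65, Isy1 and H2-Q6, with ratios from -2.38 to -1.39. Hist1h2ae, a histone gene made in dividing cells, had 91.7% of its room air UMIs in 1 cell, and its ratio was 1.39 without the deepest DC of each library. Xlr, an X-linked gene, was 220 and 73.7 CPM (-1.58, -2.17 to -0.996), with UMIs in 11 of 16 and 12 of 42 DCs and a ratio of -1.04 elsewhere. Cldn1, a tight junction protein, was 152 and 55.7 CPM (-1.45, -2.15 to -0.76) with a ratio of -0.09 elsewhere, and Gpr65, an acid-sensing receptor, 126 and 46.7 CPM (-1.43, -2.21 to -0.68). Pyhin1, an interferon-inducible nuclear protein, was 107 and 37.7 CPM (-1.50, -2.36 to -0.67).

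**Figure D5:**
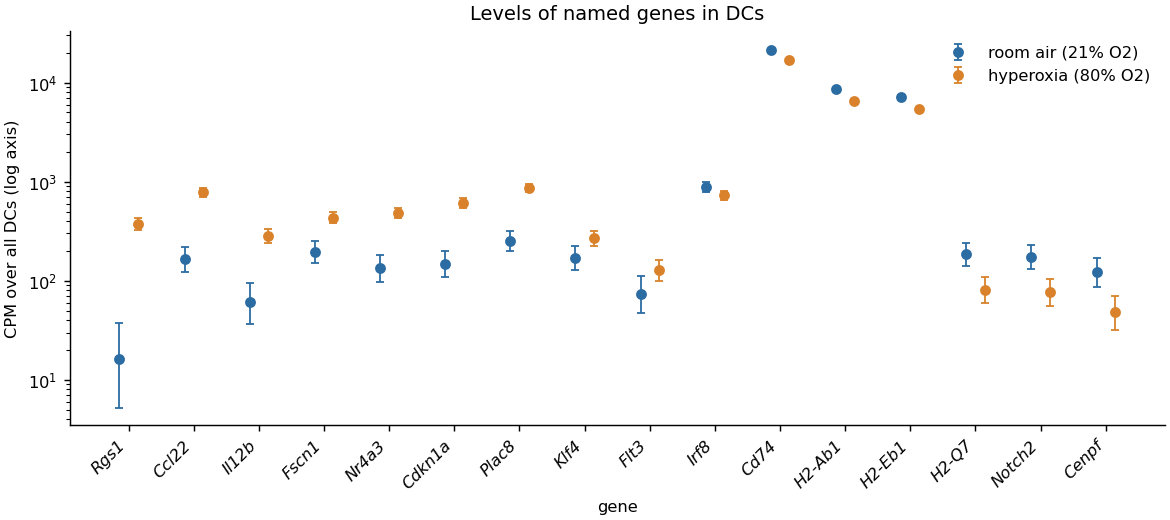
CPM of 16 named genes summed over all DCs of each library on a log axis (blue, room air; orange, hyperoxia), with exact 95% Poisson intervals that cover counting error only. Rgs1 is lowest in room air at 16.2 CPM and reaches 377 CPM in hyperoxia, and the MHC class II genes Cd74, H2-Ab1 and H2-Eb1 are lower in hyperoxia.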

How the data were processed

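Per the labels and the methods, the authors made 10x libraries, counted UMIs with Cell Ranger against mm10 and deposited raw counts per gene and barcode for 27998 genes. The methods name Cell Ranger 6.1.1, the processing notes 2.1.1 and the matrix headers software 3.1.0, and the kit is V3 in the methods and v2 in the labels. Which of these made the counts was not settled. Depths are given with the results. Analyses were run in Python 3.11.15 (scipy 1.17.1, numpy 2.4.6, scikit-learn 1.9.0, pandas 2.3.3). Barcodes were kept and DCs and groups chosen by the limits stated in the report. The members and gene lists were chosen with earlier results of these data known. Shares have exact Clopper-Pearson intervals, ratios exact conditional ones, and differences of shares intervals built from both shares. These were checked on simulated counts. Doublets were scored against sums of random cell pairs and removed, up to 0.8% per 1000 barcodes, only as an alternative. Other alternatives were the limits, thinning to 3000 UMIs, groups from Leiden clusters (leidenalg 0.10.2), TMM scaling (edgeR 4.0.16) and the CPM limit. Named genes were the rule genes, list members, the 12 largest and 12 smallest ratios between libraries (no mitochondrial or haemoglobin genes; of sex-linked genes, which the rule meant to leave out, only Xist and 4 Y-linked genes were removed, so that Erdr1, P2ry10 and Xlr remained), the 15 largest DC excesses and the 10 leading genes per group. Of the list genes, 9 were not used here. The study's bulk RNA-seq was not used here. Promoters and coordinates came from RefSeq and GENCODE tables of GRCm38, the mm10 assembly.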

Additional observations from a re-analysis of the deposited data

How the results depend on the processing

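No paired analysis was possible because each group is 1 library, and for the same reason no replicate could be left out. The shares of DCs and of the DC groups stayed within their intervals under the alternatives that gave them. The 97 genes higher and 66 lower became 64 higher with the choice made on cells thinned to 3000 UMIs, 167 and 105 with totals without mitochondrial, ribosomal and haemoglobin genes, 408 and 222 at a mean of at least 20 CPM, 40 and 23 at 100 CPM, and 113 lower in the Xcr1/Clec9a group alone. Thinning took 21 room air and 39 hyperoxia cells, 9 and 22 of them DCs of the report, and all 12 and 17 others exceeded an upper limit of the choice before thinning. It turned Ccl22 to -0.62, Cd63 to -0.0561, Il12b to -1.38, Hist1h2ae to 0.14, Sult1a1 to 0.13 and Xcr1 to 0.0844, and the mature DC median to -0.14. At least 20 H2-Ab1 UMIs turned Cd63 to -0.11 and Fscn1 to -0.16. Giving the groups the same weights in both libraries turned Cd63 to -0.0553, the Xcr1/Clec9a group alone turned Mgl2 to 1.97 and Nr4a3 to -0.15, and leaving out the deepest DC of each library turned Hist1h2ae to 1.39. These last 3 alternatives, and leaving out the undecided DCs with the Siglech cell, were chosen after seeing the data. The causes of these changes were otherwise not tested. The MHC class II median, with H2-Ab1 of the choice in the list, ran from -0.43 to -0.23 over 17 alternatives. The oxidative phosphorylation median ran from -0.43 to -0.10. With 16 room air DCs, depth and cell number limit every share and sum.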
